A study of Mus musculus with 15 samples.

Results

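The low-density lipoprotein (LDL) receptor family and a small group of other receptors that carry or sense blood-borne ligands at the vessel wall were followed in endothelial cells of 3 mouse organs. The 8 genes, chosen by name with earlier results of these data known, were Vldlr, Lrp1, Lrp6, Lrp8, Sorl1, Insr, Lepr and Ager. All 8 had a probe set with that single symbol, the brightest one standing for the gene, and they make up 8 of the 19938 genes measured. Endothelial cells, which line blood vessels, came from the brain (5 arrays), the heart (5 arrays) and the liver (5 arrays) of Tie2-GFP mice on an FVB background, aged 8 to 12 weeks, males and females in equal number. Green fluorescent protein stands under the Tek (Tie2) promoter in these mice, and cells were sorted on that fluorescence, so other cells in which the promoter is active can pass the gate. Each array held RNA pooled from 6 mice for brain, 4 mice for heart and 2 mice for liver. Digestion lasted 60 min in each case but used crude collagenase and then trypsin for brain, collagenase I for heart and dispase for liver, and the liver suspension alone went through a Percoll gradient. An effect of tissue thus cannot be told apart from one of isolation or of pool size.

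LDL receptor family proteins are endocytic receptors whose outer part binds apolipoproteins, protease complexes and other ligands and whose tail recruits clathrin adaptors. Some members signal as well as carry cargo: Lrp8 and Vldlr pass on the reelin signal in neurons, and Lrp6 is a coreceptor for Wnt proteins. In vessels of the brain, where tight junctions close the gaps between cells, receptor-mediated transcytosis is a known route for insulin, leptin and other proteins from blood to tissue. In the liver sinusoid, an open capillary, endocytosis serves mainly to clear blood.

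The sorted cells carried endothelial transcripts in all 3 tissues. A list of 20 endothelial markers averaged 10.10 to 10.46 over the brain arrays, 10.03 to 10.13 over the heart arrays and 9.97 to 10.19 over the liver arrays. Single markers differed between tissues: 6 of the 20 were higher and 4 lower brain minus heart, 8 and 5 brain minus liver, and 4 and 6 heart minus liver. The brightest probe set of the list was that of Flt1, a VEGF receptor, in brain (12.43). In heart it was that of the junction cadherin Cdh5 (12.06) and in liver that of the phosphatase Ptprb (12.28). This does not rank the genes by amount of transcript. Neuron markers averaged 5.21 to 5.32 in brain, and oligodendrocyte markers 5.39 to 5.59, with 0 of 13 and 0 of 9 higher there than elsewhere. Astrocyte markers averaged 5.74 to 6.24 in brain, with 1 of 12 higher and 1 lower, and lymphoid and granulocyte markers stayed between 4.73 and 5.17 on all arrays. Transcripts of other cells were present in every tissue. Hepatocyte markers were raised on all 5 liver arrays (6.81 to 7.35, against 4.99 to 5.15 in brain and 5.05 to 5.22 in heart), cardiomyocyte markers on all 5 heart arrays (7.64 to 8.92, against 6.09 to 6.26 in brain and 5.80 to 6.03 in liver) and choroid plexus markers on all 5 brain arrays (6.23 to 7.12, against 5.32 to 5.43 in heart and 5.71 to 6.07 in liver). Some arrays held more than others. Macrophage and Kupffer cell markers were at 7.67, 8.13 and 7.82 on liver replicates 1, 3 and 4, against 6.05 and 5.77 on the other two, and cardiomyocyte markers were highest on heart replicates 1 and 3, at 8.92 and 8.62, against 7.64 to 8.17 on the others. The calls of Lrp8, Insr, Lepr and Lrp6 held without those liver arrays and without those heart arrays, which leaves the other cells of the remaining arrays in place. Values of Vldlr and Lrp1 that moved are given beside their results.

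Of the 8 receptors, 4 were higher or lower in 1 tissue than in both others, as were 25.5% of all genes. Lrp8 and Insr were highest in brain (4.7% of all genes were higher in brain than in heart and liver), Lepr and Lrp6 were highest in liver and lowest in heart, and Insr was also lowest in heart. Vldlr passed the test between heart and liver alone, and Lrp1, Sorl1 and Ager passed in none of the 3 comparisons. All differences are on the log2 scale of the deposited array values, on which 1 unit is a 2-fold difference, and the test was limma with Benjamini-Hochberg adjustment over all genes, called at an adjusted p under 0.05. Brain minus heart, 4 of the 8 were called higher and 0 lower, against 8.29% of all genes called higher and 7.11% called lower (15.4% in either direction); with arrays centred on endothelial markers 3 were higher and 1, Vldlr, lower. Brain minus liver, 2 were called higher and 2 lower, against 11.1% and 14% of all genes (25.1% in all). Heart minus liver, 1 was called higher and 3 lower, against 11.5% and 16.3% of all genes (27.8% in all). The arrays of the 2 tissues did not overlap for 4, 4 and 3 of the 8 genes in these comparisons, against 12.8%, 19% and 20.6% of all genes. The median size of the difference, sign ignored, was 0.31, 0.48 and 0.30 for the 8 genes in these 3 comparisons, against 0.13, 0.14 and 0.16 for all genes. The 3 comparisons share arrays, so their counts are not independent of each other. Since the 8 genes were chosen with earlier results of these data known, the values of all genes give a scale and no test of the group. The medians of the signed differences were 0.14, 0.09 and 0.03 for the 8 genes and -0.03, 0.00 and 0.03 for all genes.

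**Figure D1:**
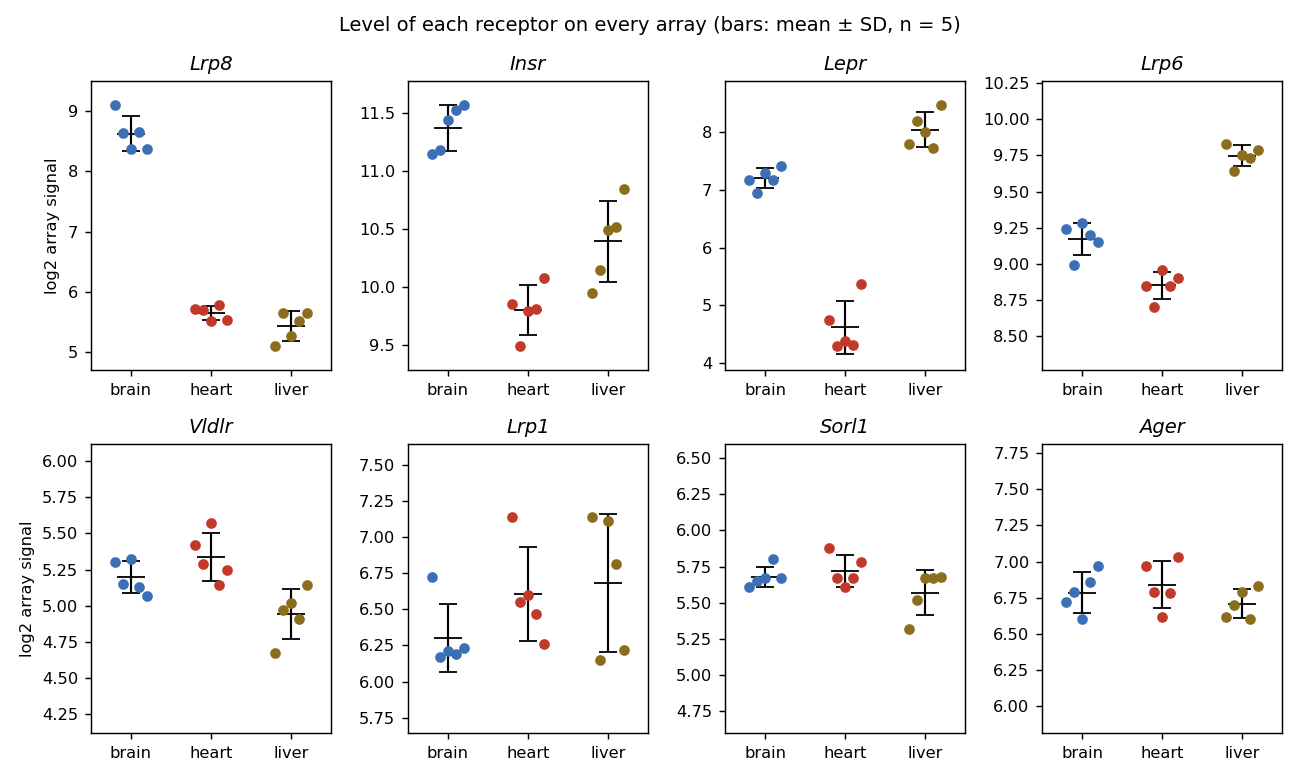
Log2 array signal of the 8 receptors (vertical axis) on each of 15 arrays, grouped as brain, heart and liver; points are arrays, bars the mean ± SD (n = 5). Vertical axes differ between panels and do not start at 0; Lrp8 at 8.38 or more stands apart in brain, and Lepr at 5.36 or less stands apart in heart.

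Lrp8 (probe set 10506714), the apolipoprotein E receptor 2, which also takes up selenoprotein P and binds reelin, showed the clearest brain pattern. Its log2 levels were 9.10, 8.63, 8.38, 8.65 and 8.38 in brain cells, 5.72, 5.70, 5.51, 5.78 and 5.54 in heart cells, and 5.10, 5.65, 5.26, 5.52 and 5.65 in liver cells. Every brain array lay above every heart and liver array, while heart and liver overlapped. Brain exceeded heart by 2.98 (SE 0.14, 7.88-fold, 95% interval 6.46 to 9.61-fold, adjusted p = 2.12e-11). Brain exceeded liver by 3.19 (SE 0.14, 9.14-fold, 95% interval 7.50 to 11.1-fold, adjusted p = 2.89e-12). Both differences were at least 1, a size that 1.56% of all genes reached as genes enriched in brain. Heart minus liver did not pass (0.21, 95% interval -0.07 to 0.50, adjusted p = 0.27). In a bulk sample, fewer cells that make a transcript and less of it per cell cannot be told apart. Brain replicate 1, with the highest Lrp8 level, also had the highest brain level of the pericyte and smooth muscle markers (7.84 averaged over 14 genes, against 6.13 to 6.92 on the other brain arrays). Pericyte and smooth muscle markers averaged 6.79 to 8.09 in heart and 6.10 to 6.18 in liver. Choroid plexus markers were also highest on brain replicate 1, at 7.12, against 6.23 to 6.54 on the other brain arrays, and 6 of 13 were higher in brain than in heart and liver. Without brain replicate 1, brain exceeded heart by 2.86 in Lrp8 (adjusted p = 2.33e-11). The part of either cell type in the level of Lrp8 was not tested.

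The stretch of 250 bases before the first RefSeq start of Lrp8 is shown because Lrp8 had the largest brain difference of the 8 genes, and that before the first start of Lepr because Lepr had the largest difference of all. Both are on the plus strand of GRCm38.p6, as given by RefSeq, at chr4:107802635-107802884 and chr4:101717157-101717406. Capitals mark CTTTG, the core bound by the Wnt effectors of the TCF and LEF family, or CAAAG, the same motif on the other strand.
Lrp8: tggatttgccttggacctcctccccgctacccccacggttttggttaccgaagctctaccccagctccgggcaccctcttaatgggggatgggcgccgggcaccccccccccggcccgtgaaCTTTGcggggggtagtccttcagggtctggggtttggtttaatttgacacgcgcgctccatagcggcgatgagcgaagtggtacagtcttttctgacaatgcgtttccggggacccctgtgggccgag
Lepr: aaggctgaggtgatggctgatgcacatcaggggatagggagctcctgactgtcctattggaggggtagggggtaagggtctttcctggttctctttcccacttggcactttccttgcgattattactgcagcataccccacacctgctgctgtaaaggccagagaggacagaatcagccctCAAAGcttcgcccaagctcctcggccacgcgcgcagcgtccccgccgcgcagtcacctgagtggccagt
Each stretch held 1 match. The motif occurred in 48.6% of 32851 such windows of all genes, on either strand, so a match here is common. The GC box GGGCGG, searched on both strands and found in 32.7% of all windows, was in neither. Both genes have windows at later starts, not shown. That of Lepr, at chr4:101717656-101717905, held 1 GC box, and those of Lrp8 held 0. The Lrp8 window shown held 18 CpG pairs and the Lepr window shown 10, against a median of 6 over all windows. The RefSeq table held such windows for 6 of the 8 genes.

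Insr (probe set 10576692), the insulin receptor, a tyrosine kinase also described as a carrier of insulin across brain endothelium, also led in brain. Its log2 levels were 11.15, 11.18, 11.44, 11.53 and 11.57 in brain cells, 9.85, 9.49, 9.79, 9.81 and 10.08 in heart cells, and 9.95, 10.15, 10.49, 10.52 and 10.85 in liver cells. The brain arrays lay above all others, and the heart and liver arrays overlapped between 9.95 and 10.08. Brain exceeded heart by 1.57 (SE 0.15, 2.97-fold, adjusted p = 4.81e-07). Brain exceeded liver by 0.98 (SE 0.15, 1.97-fold, 95% interval 1.58 to 2.46-fold, adjusted p = 6.63e-05). Heart was lower than liver by a difference of -0.59 (SE 0.15, adjusted p = 0.00635), which did not pass after quantile normalization of the genes tested (-0.43, adjusted p = 0.0596; adjusted p from 2.01e-05 to 0.0596 over 25 other settings). Insr was the member with a second probe set, 10576696. That set had means of 10.12 ± 0.17 in brain cells, 7.915 ± 0.13 in heart cells and 8.795 ± 0.17 in liver cells (SD, n = 5 each), the same order of tissues with no overlap of brain with the other arrays. With both probe sets averaged, brain exceeded heart by 1.89 and liver by 1.15.

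Lepr (probe set 10506301), the leptin receptor, whose short forms take up leptin and whose long form signals through the Jak2 kinase, was high in liver, somewhat lower in brain and low in heart. The arrays gave log2 levels of 7.18, 6.94, 7.29, 7.18 and 7.41 in brain cells, 4.75, 4.29, 4.38, 4.31 and 5.36 in heart cells, and 7.80, 8.19, 8.01, 7.72 and 8.47 in liver cells. No 2 tissues overlapped, and heart lay far below both others. Brain exceeded heart by 2.58 (SE 0.19, 6.00-fold, adjusted p = 1.12e-08). Brain was lower than liver by a difference of -0.84 (SE 0.19, 1.79-fold, adjusted p = 0.00219). Heart was lower than liver by a difference of -3.42 (SE 0.19, 10.7-fold, adjusted p = 1.44e-10). Long and short forms of the receptor were not separated here.

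Markers of other cells that use the leptin receptor were set beside these values. Choroid plexus markers, of which 6 of 13 were higher in brain than in heart and liver, averaged 7.12, 6.54, 6.51, 6.36 and 6.23 on the brain arrays, 5.32 to 5.43 in heart and 5.71 to 6.07 in liver. Brain replicate 5, with the highest brain level of Lepr, had the lowest level of these markers. Hepatocyte markers, of which 12 of 13 were higher in liver, averaged 6.98, 7.12, 6.89, 6.81 and 7.35 on the liver arrays, 4.99 to 5.15 in brain and 5.05 to 5.22 in heart. Liver replicate 5 had the highest and liver replicate 4 the lowest level of both Lepr and these markers. Replicate 5 had the highest Lepr in heart as well, at 5.36, where hepatocyte markers averaged 5.17. Stellate cell markers averaged 5.88 to 6.48 in liver, with the lowest level on liver replicate 5, against 5.90 to 6.72 in brain and 6.53 to 7.15 in heart. The part of these 3 cell types in the level of Lepr was not tested.

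Lrp6 (probe set 10548701), the Wnt coreceptor that pairs with frizzled proteins, differed in all 3 comparisons but by less than 1 unit in each. In log2 units it measured 9.24, 8.99, 9.28, 9.20 and 9.15 in brain cells, 8.85, 8.70, 8.96, 8.85 and 8.90 in heart cells, and 9.83, 9.64, 9.75, 9.73 and 9.79 in liver cells. The 3 tissues did not overlap, with liver highest and heart lowest. Heart was lower than liver by a difference of -0.90 (SE 0.07, 1.86-fold, adjusted p = 4.54e-08). Brain was lower than liver by a difference of -0.58 (SE 0.07, 1.49-fold, adjusted p = 9.34e-06). Brain exceeded heart by 0.32 (SE 0.07, 1.25-fold, adjusted p = 0.00517). That last call was lost with each array centred on 20 endothelial markers (0.11, adjusted p = 0.431; adjusted p from 0.00206 to 0.431 over 25 other settings), a scaling that moved the median of all genes from -0.03 to -0.24 in this comparison. The call of Lrp6 in 3 of 3 comparisons was shared by Lepr and Insr and by 5.02% of all genes.

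**Figure D2:**
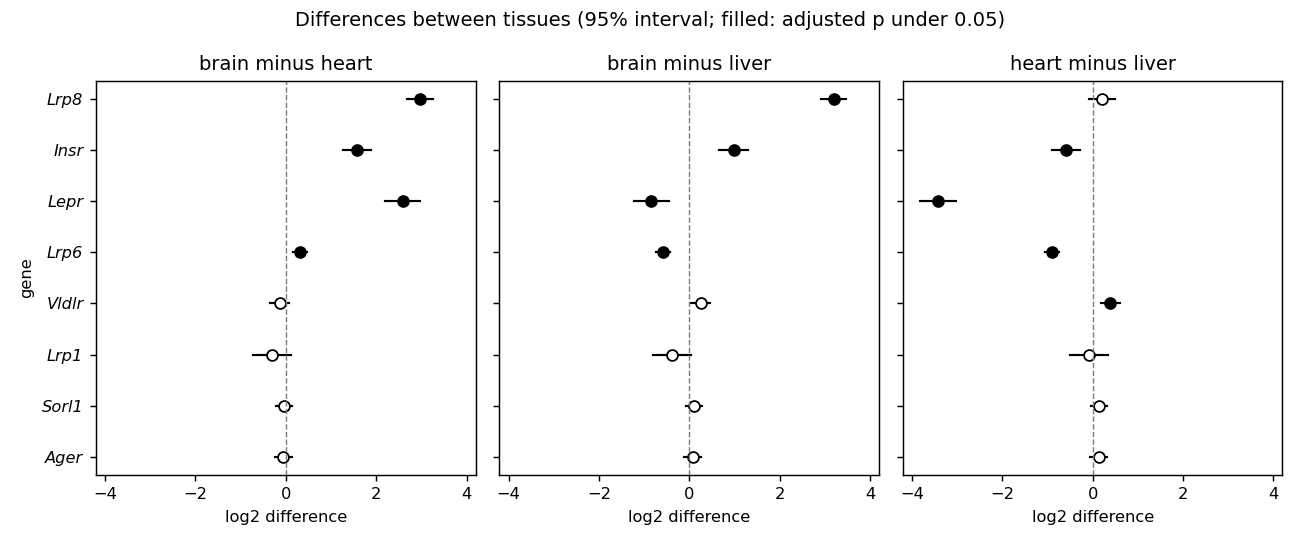
Log2 difference (horizontal axis) of each of the 8 receptors, brain minus heart, brain minus liver and heart minus liver; points are estimates, lines 95% intervals, filled points passed at an adjusted p under 0.05. Lrp8 at 2.98 and 3.19 leads the brain comparisons and Lepr at -3.42 that of heart minus liver.

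Vldlr (probe set 10462281), the very low-density lipoprotein receptor, which takes up triglyceride-rich lipoproteins in heart and fat, was low in level and differed little. On the arrays it had log2 levels of 5.30, 5.15, 5.32, 5.13 and 5.07 in brain cells, 5.42, 5.29, 5.57, 5.14 and 5.25 in heart cells, and 4.67, 4.97, 5.02, 4.91 and 5.14 in liver cells. The lowest heart array lay just above the highest liver array, and brain overlapped with both. Heart exceeded liver by 0.39 (SE 0.10, 1.31-fold, adjusted p = 0.00562). The call did not hold without heart replicates 1 and 3 (0.29, adjusted p = 0.0637) or without liver replicates 1, 3 and 4 (0.28, adjusted p = 0.149; adjusted p from 0.00322 to 0.149 over 24 other settings). Heart replicates 1 and 3 were the 2 heart arrays with the most Vldlr and the most cardiomyocyte transcript, whose markers averaged 7.64 to 8.92 in heart over 18 genes, against 6.09 to 6.26 in brain and 5.80 to 6.03 in liver. The part of these cells in the result was not tested. Brain minus heart was -0.14 (95% interval -0.35 to 0.07, adjusted p = 0.407) and brain minus liver 0.25 (95% interval 0.05 to 0.46, adjusted p = 0.0708). Without heart replicates 1 and 3 brain minus heart was -0.03 (adjusted p = 0.894), and without liver replicates 1, 3 and 4 brain minus liver was 0.14 (adjusted p = 0.541).

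Lrp1 (probe set 10373223), a large scavenger receptor for protease complexes, apolipoprotein E and amyloid beta that is made by macrophages, fibroblasts, smooth muscle and hepatocytes as well as by endothelium, spread widely within tissues and passed in no comparison of the reported fit. Its log2 levels were 6.72, 6.17, 6.21, 6.19 and 6.23 in brain cells, 7.14, 6.55, 6.60, 6.47 and 6.26 in heart cells, and 7.14, 6.15, 7.11, 6.81 and 6.22 in liver cells. All 3 tissues overlapped. Brain minus heart was -0.30 (95% interval -0.73 to 0.12, adjusted p = 0.371), brain minus liver -0.38 (95% interval -0.80 to 0.04, adjusted p = 0.202) and heart minus liver -0.08 (95% interval -0.50 to 0.34, adjusted p = 0.811). Brain minus liver did pass with arrays centred on the endothelial markers (-0.60, adjusted p = 0.0277). It also passed with the replicate number as a block, given below with the other settings. Over 25 other settings its adjusted p ran from 0.0277 to 0.79.

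Levels of Lrp1 stood beside markers of other cells on the same arrays. In liver, macrophage and Kupffer cell markers averaged 7.67, 6.05, 8.13, 7.82 and 5.77, so liver replicates 1, 3 and 4 had the highest levels of both Lrp1 and these markers. Of those 14 markers 9 were higher in liver than in brain and heart, and they averaged 5.38 to 5.61 in brain and 5.35 to 5.62 in heart. Hepatocyte markers averaged 6.98, 7.12, 6.89, 6.81 and 7.35 on the liver arrays. They were highest on liver replicates 5 and 2, where Lrp1 was lowest (6.22 and 6.15). In heart, fibroblast markers averaged 7.42, 6.67, 6.90, 6.69 and 6.29, with 6 of 11 higher there than elsewhere, against 5.36 to 5.83 in brain and 5.35 to 5.84 in liver. In brain, replicate 1 had the highest Lrp1 and the highest pericyte and smooth muscle markers. It was also the brain array with the highest fibroblast (5.83), choroid plexus (7.12), stellate cell (6.72) and astrocyte (6.24) markers. Pericyte and smooth muscle markers had 5 of 14 members higher in heart and averaged 6.13 to 7.84 in brain, 6.79 to 8.09 in heart and 6.10 to 6.18 in liver. Left without liver replicates 1, 3 and 4, Lrp1 was 0.12 brain minus liver (adjusted p = 0.79) and 0.42 heart minus liver (adjusted p = 0.194), both with the sign turned. Without heart replicates 1 and 3, it was -0.12 brain minus heart (adjusted p = 0.781) and -0.26 heart minus liver (adjusted p = 0.439). Replicate 1 had the highest Lrp1 of its tissue in brain (6.72), in heart (7.14) and in liver (7.14). What these cells, or anything shared by arrays of 1 number, contributed to the level of Lrp1 was not tested.

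**Figure D3:**
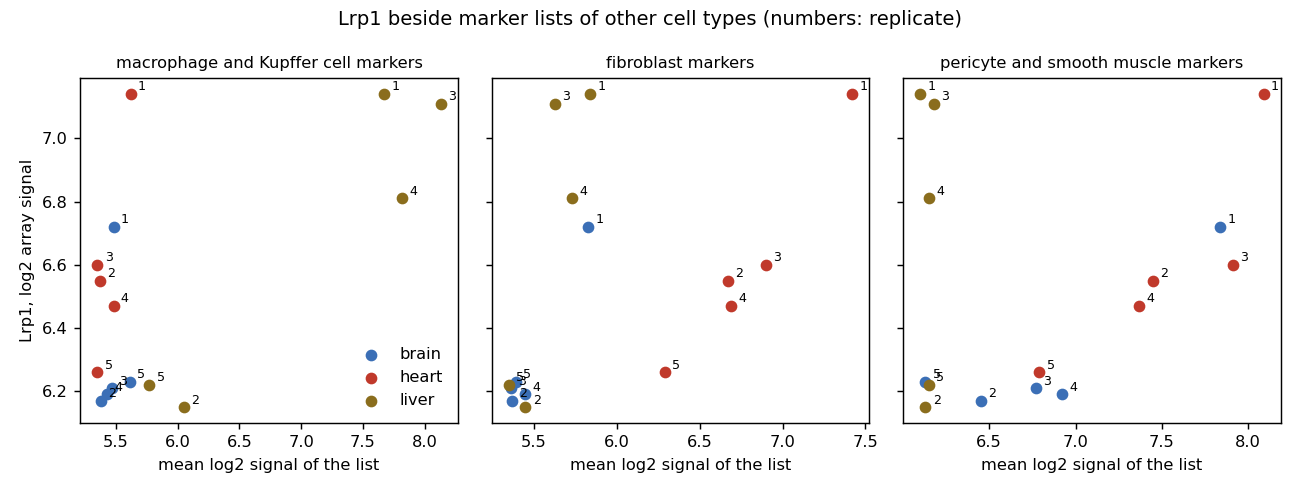
Log2 array signal of Lrp1 (vertical axis) against the mean log2 signal of 3 marker lists (horizontal axis), 1 point per array, numbered by replicate and coloured brain, heart and liver. Liver replicates 1, 3 and 4, with Lrp1 at 6.81 to 7.14, lie at macrophage and Kupffer cell levels of 7.67 to 8.13.

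Sorl1 (probe set 10592535), the sorting receptor SorLA, which joins LDL receptor repeats to a VPS10 domain and steers cargo between Golgi and endosomes, was nearly level. Its log2 levels ran from 5.61 to 5.80 in brain (median 5.67), 5.61 to 5.88 in heart (median 5.67) and 5.32 to 5.68 in liver (median 5.67). The tissues overlapped throughout. The 3 differences were -0.04 brain minus heart, 0.11 brain minus liver and 0.15 heart minus liver, with 95% intervals from -0.22 to 0.14, from -0.07 to 0.28 and from -0.03 to 0.32 and adjusted p-values of 0.816, 0.419 and 0.208. Sorl1 and Vldlr had tissue means under 6, the lower limit of an alternative filter that 6 of the 8 genes passed.

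Ager (probe set 10444407), the receptor for advanced glycation end products, which binds S100 proteins and Hmgb1 and is known as an importer of amyloid beta at the blood-brain barrier, was also nearly level. Measured log2 levels were 6.72, 6.79, 6.60, 6.86 and 6.97 in brain cells, 6.97, 6.79, 6.62, 6.78 and 7.03 in heart cells, and 6.62, 6.70, 6.79, 6.60 and 6.83 in liver cells. The tissues overlapped almost fully. Brain minus heart was -0.05 (95% interval -0.25 to 0.14), brain minus liver 0.08 (95% interval -0.12 to 0.27) and heart minus liver 0.13 (95% interval -0.06 to 0.32), with adjusted p-values of 0.764, 0.637 and 0.317. These intervals, of the reported fit alone, allow a fold of at most 1.25 in either direction of the array signal. Over 25 other settings brain minus heart ran from -0.268 to -0.007. Whether the signal of Ager lay above background was not tested.

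Genes with the profile most like that of each receptor were found by Pearson correlation over the 15 arrays among 7658 genes whose highest tissue mean was at least 7. With 3 tissues, such a correlation follows mainly the tissue means. Lrp8 ran closest to Apcdd1, a Wnt inhibitor (r = 0.994), and to the glutamine carrier Slc38a3 (r = 0.994). Apcdd1 averaged 10.63 in brain cells, 5.88 in heart cells and 5.68 in liver cells. Insr ran closest to Mal, a raft protein (r = 0.96), and to Ddah1, which breaks down inhibitors of nitric oxide synthase (r = 0.953). Lepr ran closest to Gatm, which makes a creatine precursor (r = 0.976; means 10.76 in brain cells, 5.97 in heart cells and 11.68 in liver cells), and to Gpr155 (r = 0.96). Lrp6 ran closest to the endocytic scaffold Itsn1 (r = 0.985) and to the ADP receptor P2ry1 (r = 0.983). For Vldlr the nearest genes were Jph2, a junction protein of muscle cells (r = 0.891), and Fam124b (r = 0.874). For Lrp1 they were the macrophage gene Cd68 (r = 0.879) and the splicing factor Tra2b (r = 0.875). Those of Sorl1 were Dedd2 (r = 0.843) and Tmem196 (r = 0.824). Those of Ager were Lce1j (r = 0.718) and Gfi1b (r = 0.711).

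Among 12 other members of the LDL receptor family, Ldlrad3 alone was higher in brain than in heart and liver, and 0 were lower there. In liver 0 were higher and 1 lower (2 and 1 with arrays centred on the endothelial markers). Ldlrad3 averaged 8.91 ± 0.25 in brain cells, 7.46 ± 0.05 in heart cells and 6.04 ± 0.20 in liver cells, 2.73-fold above heart (adjusted p = 4.68e-08). Ldlrad2 was 1.30-fold higher in heart than in brain, at 5.13 ± 0.08 against 4.74 ± 0.11. Over all genes 4.7% were higher and 2.82% lower in brain than in heart and liver. In heart these shares were 3.73% and 3.27%, and in liver 10.4% and 5.64%. The same shares apply to each related list below. Heart minus liver, 2 of the 12 were higher and 2 lower. The 2 lower ones, named after their values were seen, were the Wnt coreceptor Lrp5 (-0.45, SE 0.10, adjusted p = 0.00209), the closest relative of Lrp6, and Lrp10 (-0.52, SE 0.14, adjusted p = 0.0118). Lrp5 had the same order of means as Lrp6, at 8.17 in brain cells, 7.93 in heart cells and 8.38 in liver cells, but brain passed against neither tissue (adjusted p = 0.139 and 0.129).

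Of 10 measured chaperones, adaptors and regulators of the family, 3 were higher and 2 lower in liver than in brain and heart (5 and 2 with arrays centred on the endothelial markers), and 2 were lower in brain. In heart 0 were higher and 2 lower, and none was set apart there under that centring. Mylip, a ubiquitin ligase that sends Vldlr and Lrp8 proteins to degradation, was lowest in brain. Protein was not measured, and the part of Mylip in the level of either receptor was not tested. Mylip averaged 7.16 ± 0.38 in brain cells, 8.14 ± 0.61 in heart cells and 9.74 ± 0.11 in liver cells, 1.98-fold lower in brain than in heart (adjusted p = 0.0063). The endocytic adaptor Dab2 averaged 11.37 ± 0.17 in liver cells, against 9.80 ± 0.16 in brain cells and 9.40 ± 0.13 in heart cells, 2.98-fold higher in liver than in brain. The adaptor Numb was 1.53-fold higher in liver than in heart, a call that ended without liver replicates 1, 3 and 4 (adjusted p = 0.065). Gulp1, which binds the tail of Lrp1, was 8.22-fold lower in liver than in heart, at 3.88 ± 0.15 against 6.92 ± 0.24.

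Of 17 ligands of the family, 6 were higher in liver than in brain and heart and 1 lower, and 2 were higher and 2 lower in brain (2 and 6 with arrays centred on the endothelial markers). Apoe, the apolipoprotein that Lrp8, Vldlr and Lrp1 bind, averaged 12.35 ± 0.15 in liver cells, against 10.23 ± 0.29 in brain cells and 9.29 ± 0.20 in heart cells, 4.36-fold above brain (adjusted p = 5.32e-10). Coagulation factor F8, cleared by Lrp1, and lipoprotein lipase, Lpl, a bridge between lipoproteins and their receptors, led the list. F8 was 50.4-fold higher in liver than in heart, and Lpl 23.5-fold higher in heart than in brain. Cardiomyocytes also make lipoprotein lipase, and hepatocytes and macrophages make Apoe; their markers, with the values given for Vldlr, Lepr and Lrp1, were higher in heart and in liver, and their part in these levels was not tested. The plasminogen activator Plat, cleared by Lrp1, averaged 5.74 ± 0.49 in liver cells, against 9.32 ± 0.13 in brain cells and 8.30 ± 0.44 in heart cells.

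Of 26 genes on the Wnt side of Lrp5 and Lrp6, 6 were higher in brain than in heart and liver and 0 lower (6 and 1 with arrays centred on the endothelial markers), while 2 were higher and 4 lower in liver. Over all genes 4.7% were higher and 2.82% lower in brain. Among the 6 was Sostdc1, named because it is also on the choroid plexus list, whose markers were raised on the brain arrays. The part of choroid plexus cells in its level was not tested. The Wnt target Axin2 averaged 9.02 ± 0.52 in brain cells, against 6.41 ± 0.11 in heart cells and 6.56 ± 0.15 in liver cells, 5.53-fold above liver (adjusted p = 5.81e-09). The Wnt receptors Fzd3 and Fzd6 were 3.53-fold and 2.80-fold higher in brain than in heart. Rspo3, a secreted enhancer of Wnt signalling, was 9.56-fold higher in liver than in brain, at 7.61 ± 0.55 against 4.35 ± 0.15. The list thus held no gene set apart in heart in the reported fit, where Lrp6 was lowest, and 1 after quantile normalization.

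Of 16 VPS10 sorting receptors and genes of the retromer and its partners, which return receptors from endosomes, 7 were higher in liver than in brain and heart and 0 lower (6 and 0 with arrays centred on the endothelial markers). The sorting nexins Snx5 and Snx2 were 4.14-fold and 3.34-fold higher in liver than in brain, and the retromer subunit Vps29 was 1.86-fold higher in liver than in heart. Sort1, the relative of Sorl1 known as sortilin, averaged 6.80 ± 0.23 in heart cells, against 8.14 ± 0.37 in brain cells and 7.74 ± 0.20 in liver cells, 1.92-fold lower in heart than in liver (adjusted p = 0.000195).

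Of 19 insulin and IGF signalling genes, 3 were higher in brain than in heart and liver and 0 lower (2 and 3 with arrays centred on the endothelial markers). In heart 2 were higher and 1 lower (4 and 1 under that centring), and in liver 1 was higher and 4 lower (1 and 1). Grb14, an adaptor that inhibits the insulin receptor kinase, averaged 9.28 ± 0.25 in brain cells, against 5.84 ± 0.31 in heart cells and 5.61 ± 0.16 in liver cells, 10.9-fold above heart (adjusted p = 6.38e-12). Igf1r, the relative of Insr that binds insulin-like growth factor 1, averaged 10.53 ± 0.13 in brain cells, against 7.81 ± 0.17 in heart cells and 7.48 ± 0.14 in liver cells, 6.59-fold above heart (adjusted p = 6.91e-13). The kinase subunit Pik3cb was 4.73-fold lower in liver than in brain, and Igf2r, which takes up insulin-like growth factor 2, was 3.75-fold higher in heart than in brain.

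Of 10 leptin signalling genes, 2 were higher in liver than in brain and heart, against 10.4% of all genes, and 0 were set apart in brain or heart. After quantile normalization 1 was higher and 1 lower in liver. Stat5b was 1.45-fold higher in liver than in brain. Leprot, the endospanin that lowers leptin receptor at the cell surface, was 1.33-fold higher in liver than in brain, at 10.23 ± 0.13 against 9.82 ± 0.29 (adjusted p = 0.0214), and lost that call without liver replicate 3 (adjusted p = 0.0641), without liver replicates 1, 3 and 4 (adjusted p = 0.264) and after quantile normalization (adjusted p = 0.0645). Brain minus heart, where Lepr differed 6.00-fold, 0 of the 10 passed in either direction, against 15.4% of all genes. With so few genes, 0 lies near that share.

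Of 12 RAGE ligands and signalling genes, 2 were higher and 3 lower in liver than in brain and heart, and 1 was higher and 1 lower in brain (0 and 4 with arrays centred on the endothelial markers). The ligand S100a6 averaged 9.20 ± 0.42 in heart cells, against 7.68 ± 0.32 in brain cells and 6.11 ± 0.45 in liver cells, 2.87-fold above brain (adjusted p = 7.52e-05). The ligand S100a1 was 1.80-fold higher in liver than in heart. Fibroblast markers were likewise higher in heart, and their part in the S100a6 level was not tested. Tlr4, another receptor for Hmgb1, was 2.78-fold lower in brain than in heart, and Diaph1, which binds the tail of the receptor, was 2.06-fold lower in liver than in brain.

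Of 16 other receptors and genes of endothelial transcytosis, 9 were higher in brain than in heart and liver and 1 was lower. With arrays centred on the endothelial markers these counts were 9 and 2. Over all genes 4.7% were higher and 2.82% lower in brain. The list was chosen with earlier results of these data known. Its 9 higher genes include the transporter Mfsd2a and the amino acid carrier genes Slc7a5 and Slc3a2, so they are not all receptors. The count is thus not one of transcytosis receptors. The median difference of the list was 0.99 brain minus heart and 1.13 brain minus liver, against -0.03 and 0.00 for all genes. The transferrin receptor Tfrc averaged 11.17 ± 0.15 in brain cells, against 6.72 ± 1.38 in heart cells and 5.25 ± 0.41 in liver cells, 21.8-fold above heart (adjusted p = 9.65e-07). The heart arrays were uneven for Tfrc, at 9.06, 6.27, 6.54, 6.33 and 5.41, with every one below the lowest brain array at 11.01. Heart replicate 1, the highest, was also the heart array with the highest cardiomyocyte (8.92), fibroblast (7.42), pericyte and smooth muscle (8.09) and stellate cell (7.15) markers. Heart replicate 3, next in cardiomyocyte markers (8.62), had Tfrc at 6.54. The part of these cells was not tested. Also named by the rule were Igf1r, above, the lipid transporter Mfsd2a (55.5-fold higher in brain than in heart) and the fatty acid receptor Cd36 (144-fold lower in brain than in liver).

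**Figure D4:**
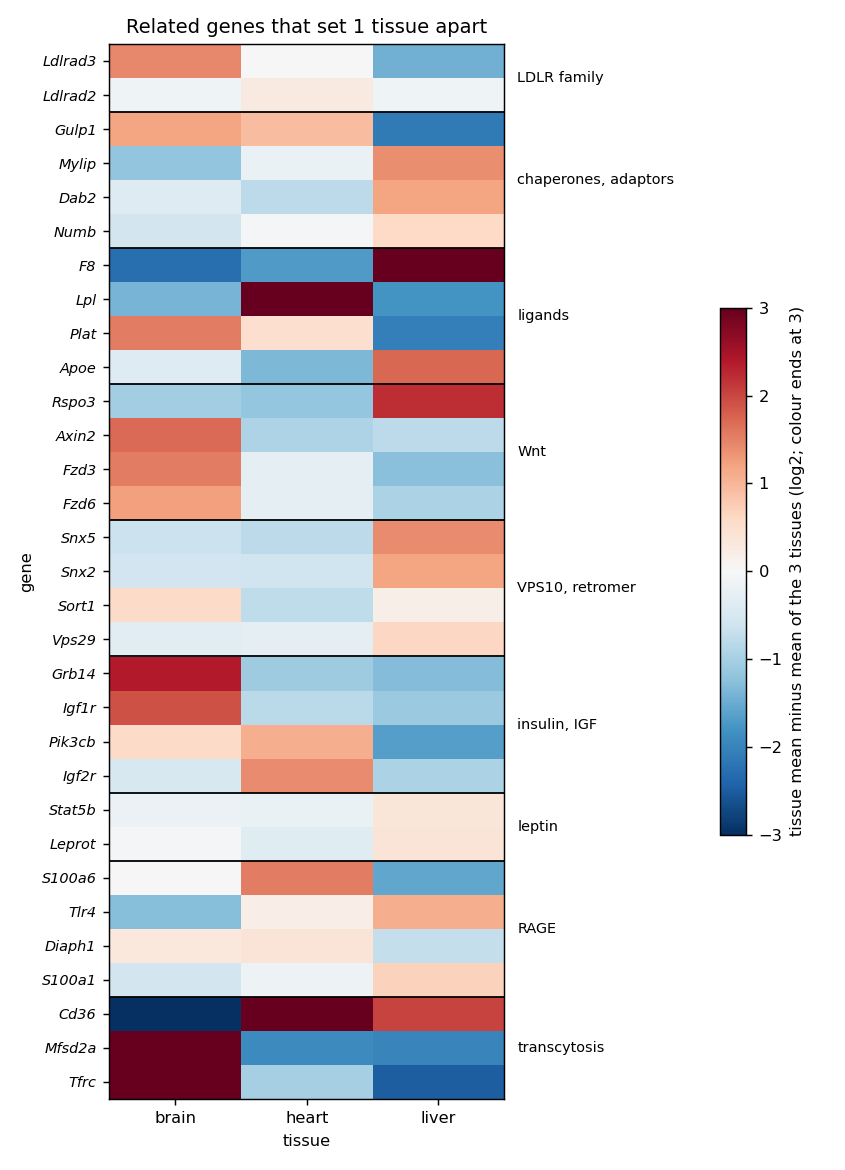
Tissue mean minus the mean of the 3 tissues (log2, colour scale ending at 3 units) for the related genes named in the text, in columns for brain, heart and liver and in rows grouped by function. Igf1r, Grb14, Tfrc and Ldlrad3 are highest in brain, and Snx5, Snx2, Dab2 and Apoe highest in liver.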

How the data were processed

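Total RNA of 15 pooled samples (5 ng each) was amplified, labelled with biotin and hybridised to 1 Affymetrix mouse gene array per sample. Per the submitters' processing notes the deposited log2 values of 35556 probe sets were made by the authors with RMA in Affymetrix Power Tools. The sources used here do not give versions or a genome build. RMA compresses large differences, and no test of signal against background was made. The number of arrays, 5 per tissue, limits the precision, and since each array is a pool, p-values measure the spread between pools.

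GEO's annotation gave 1 gene symbol to 21789 probe sets. The 1621 with several symbols and the 12146 without one were not used. Of several probe sets of a gene, the brightest on average was taken (19938 genes). All arrays entered 1 linear model with 3 tissue means in limma 3.58.1 (R 4.3.3), with 12 residual and 4.75 prior degrees of freedom, and p-values were adjusted by Benjamini-Hochberg within each comparison (threshold 0.05). A gene was higher or lower in a tissue when both of its comparisons passed in that direction, and enriched when both differences were also at least 1. The method was tested on simulated data. Members and lists were chosen with earlier results of these data known. Of each related list the 4 genes with the largest difference from the nearer tissue, among those set apart in a tissue, were named, and per member the 2 most correlated genes. Related genes without a named probe set were not analysed here. Levels are not compared between genes. In 25 alternatives the probe set rule, a filter on low values, scaling, centring, the fit, weights, a replicate block and left-out arrays were varied.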

Additional observations from a re-analysis of the deposited data

Results flagged for a closer look

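In 24 groups of 5 arrays, 1 value stood far from the rest of its group. Lrp1 was at 6.72 on brain replicate 1, against 6.17 to 6.23 on the other 4 brain arrays, a gap that made up 0.892 of the group's range where 0.71 is the critical value of Dixon's test. Chance gives a ratio over that critical value in about 1 of 20 groups. Without that array Lrp1 was -0.41 brain minus heart and -0.49 brain minus liver, and neither difference passed. Replicate 1 also had the highest Lrp1 in heart and in liver, at 7.14 in each.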

How the results depend on the processing

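Of 25 alternatives, 15 left out 1 array each, and leaving out liver replicates 1, 3 and 4 together was added after seeing the data. Among 234 single differences of the 8 receptors under the other settings 223 kept direction and side of the threshold, as did 355 of 360 with 1 array left out. Lrp8, Lepr and the higher Insr in brain kept both under all alternatives run. With arrays centred on endothelial markers, which put the median of all genes at -0.242 brain minus heart and -0.218 brain minus liver, 6613 genes passed in that comparison, against 3070 (897 higher and 5716 lower, against 1652 and 1418), and brain minus liver had 1243 higher and 5999 lower, against 2204 and 2799. Under this centring Sorl1 was -0.108 and Ager -0.139 brain minus liver, both with the sign turned, and Vldlr passed brain minus heart (-0.353, adjusted p = 0.0391). Without liver replicates 1, 3 and 4, 3285 genes passed heart minus liver, against 5538, and Lrp1 was 0.119 brain minus liver and 0.421 heart minus liver. With 1 array left out, Lrp1 heart minus liver ran from -0.214 to 0.035 (above 0 without liver replicate 1 or 3 or heart replicate 5), Sorl1 brain minus heart from -0.07 to 0.001 (above 0 without heart replicate 1), and Vldlr passed brain minus liver without liver replicate 5 (0.303, adjusted p = 0.0366). The replicate block brought Lrp1 brain minus liver past the threshold (-0.381, adjusted p = 0.0432) and changed no other call among the 8. Arrays sharing a replicate number correlated at -0.001 to 0.204 in their deviations from tissue means. This was over 0.1, the mark set for pairing, in 6 of 15 pairs, not in all, so the fit without the block was kept. In 20 of 30 array and tissue combinations the own number correlated best among 5 candidates. This was a hint from the data, not the design, that same-numbered arrays share something. In each tissue Lrp1 was highest on replicate 1, and Insr, Lepr and Ager were highest on replicate 5. Lrp6 was lowest on replicate 2 in each tissue, while Vldlr, Lrp8 and Sorl1 shared no number at either end. Among related genes, calls that were lost under some setting include the lower Dab2 in heart (adjusted p = 0.292 with probe sets averaged) and the lower Igf2r (0.0927) and Igf1r (0.057) in liver under the centring. A filter at 6 left out Vldlr and Sorl1. The number of arrays and low signal near 5 limit what could be seen for those 2 genes. Lepr in heart (4.29 to 5.36) and Lrp8 in heart (5.51 to 5.78) and liver (5.10 to 5.65) also lay below the lowest array median, 5.98. Their fold values against these tissues rest on such low signals. The cause of the changes between settings was not tested.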
